A study of Drosophila melanogaster with 14 samples.

Results

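Early zygotic genes of Drosophila melanogaster were followed through every library of an RNA sequencing series on the transcription factor gene lola: bnk, SNCF, halo, nullo, Sry-alpha, slam, Elba1, Elba3 and zen, 9 of the 17558 genes listed in the files. The members were chosen by a fixed set of symbols, and the set was picked from measured values, namely the counts of these genes in the same 14 libraries. Their levels are therefore given as a description, with no test. The lola-F mutants (3 libraries) carried lola-F stop over the deficiency Df(2R)ED2076, and in the lola-F controls (3 libraries) that deficiency stood over wild type. The lola-null mutants (2 libraries) carried lola E76 over Df(2R)ED2076, and the lola-null controls (2 libraries) again wild type over that deficiency. The lola-O mutants (2 libraries) carried lola-O over Df(2R)ED2076, and the lola-O controls (2 libraries) wild type over it, so every animal of the series had the deficiency on 1 chromosome. The 10 embryo libraries are labelled 15 h after fertilization, from a collection of 2 h at 25 °C followed by 13 h of development; the protocols name this timing for lola-F, while the design text gives it for the embryos without naming a set. The 4 adult libraries came from flies frozen at most 10 h after eclosion. Each lola-F library was a pool of 100 embryos and each lola-O library a pool of 10 flies, while for the lola-null set the sources used here name no pool size. lola-F and lola-null mutant embryos were sorted by hand for mCherry.

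In the first hours a fly embryo is a syncytium: nuclei divide in a shared cytoplasm and live on RNA and protein that the mother placed in the egg. A small group of mostly short genes is then switched on before the bulk of the zygotic genome, and many of their products act while membrane furrows grow down between the nuclei and close them off as cells, a step called cellularization. Most of these transcripts are made for a short time and then decay, so that later embryos hold little of them, whereas an embryo at the labelled age has finished gastrulation and is building its organs. The members fall into 4 kinds by what they are known to do. bnk (bottleneck), nullo, Sry-alpha and slam (slow as molasses) act on actin, myosin and membrane at the growing furrow. halo controls the transport of lipid droplets along microtubules. Elba1 and Elba3 are subunits of the ELBA insulator complex, which binds an early chromatin boundary in the bithorax complex. zen (zerknüllt) is a homeodomain factor of the dorsal embryo. SNCF is an early zygotic gene whose role is left out here.

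The libraries held 3326811 to 22629694 counts over genes, the fewest in lola-F control 1, where 65.2% of the reads of the file mapped to several places. In the 4 lola-null libraries 15.8% to 40.4% of reads mapped to several places, against 3.17% to 4.37% in the other lola-F libraries. Levels are given as CPM, counts set to a common library total, on library sizes scaled by the trimmed mean of M values (TMM), with 1 scale for the 10 embryo libraries and another for the adults. A floor of 3 counts in a library corresponded to 0.162 to 0.893 CPM in the embryo libraries, for counting error only. lola itself stood at 163, 165 and 243 CPM in the lola-F mutants, against 310, 289 and 387 CPM in the lola-F controls, and at 1056 and 323 CPM in the lola-null mutants, against 848 and 1177 CPM in the lola-null controls. The lola-F groups did not overlap, and lola-null mutant 1 lay between its controls. Neither difference passed edgeR's quasi-likelihood test (adjusted p = 0.0796 and 0.338). The labels do not say whether these alleles remove lola RNA, so the levels do not check the genotypes.

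Most members are short genes, with slam and Sry-alpha, at 4117 and 3300 exonic bases, the exceptions. The length of Sry-alpha joins 2 annotated transcripts, of which the shorter is 1 exon that lies within the longer. By the BDGP6.54 annotation bnk lies on chromosome 3R at 31193362 to 31194389 (plus strand), SNCF on 3L at 13378583 to 13379190 (plus), halo on 2L at 1517533 to 1518148 (minus) and nullo on X at 7049476 to 7050321 (plus). slam lies on 2L at 6372388 to 6377284 (plus), zen on 3R at 6752864 to 6754194 (minus), and Sry-alpha on 3R at 30039719 to 30043071 (plus). Elba1, on 2L at 4683052 to 4684461 (minus), and Elba3, at 4687511 to 4688956 (plus), are near neighbours that point away from each other, with 3049 bases between them. In 5 of the 9 (bnk, SNCF, halo, nullo and Elba3) the whole annotated gene is 1 exon, against 15.485% of 13684 protein-coding genes whose every transcript has 1 exon. The members' median exonic length was 1267 bases, against 1725 bases over those protein-coding genes. bnk, nullo and Elba1 lie within the span of genes on the opposite strand (mesh, CG12541 and CG11929) without sharing an exonic base with them. SNCF lies in an intron of CG14111 and shares 49 bases with an antisense RNA that had 0 counts in every embryo library.

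**Figure D1:**
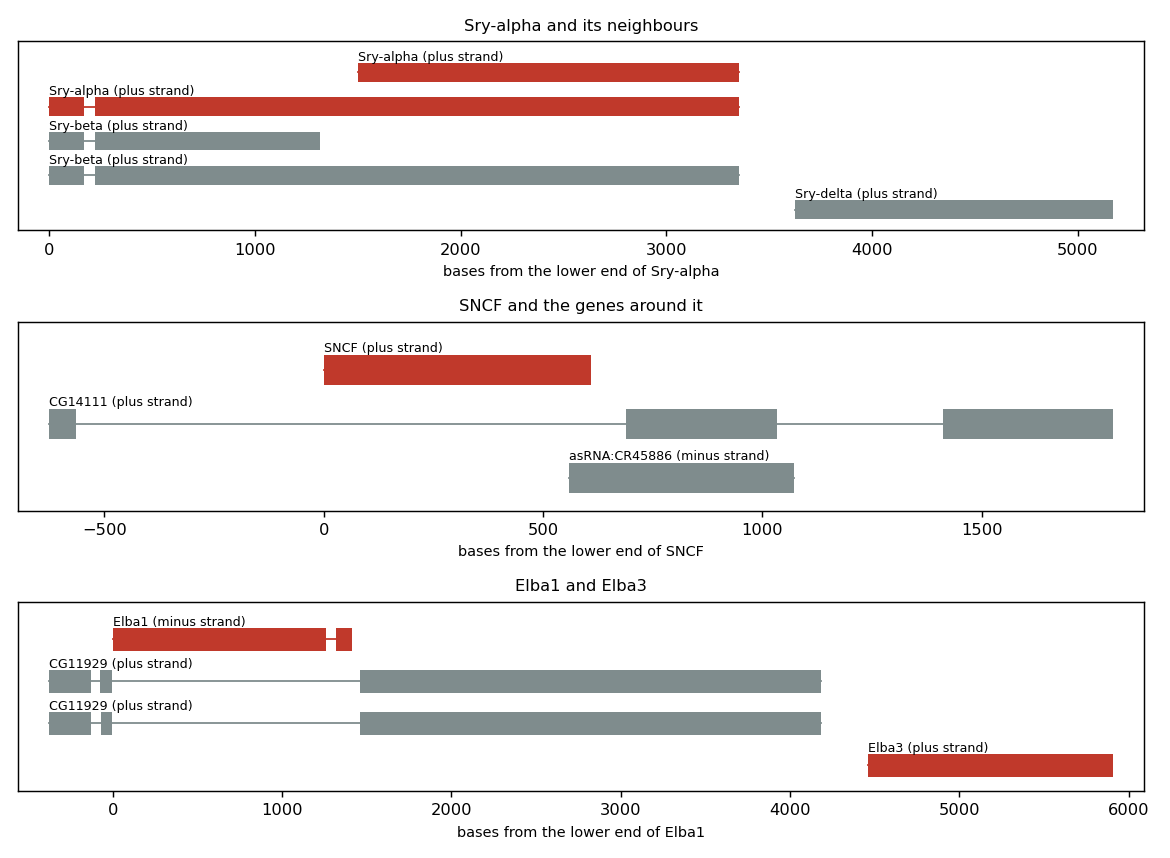
Gene models at the loci of Sry-alpha, SNCF, and Elba1 with Elba3 by the BDGP6.54 annotation, with the position in bases from the lower end of the named gene on the x axis and 1 row per transcript; boxes are exons, lines introns, and members are red. A transcript of Sry-beta covers the whole of Sry-alpha, and SNCF, a single box, lies between exons of CG14111.

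Sry-alpha could not be measured. It had 0 counts in all 14 libraries, adults included, and so did its neighbour Sry-beta. In the annotation used here all 3300 exonic bases of Sry-alpha are shared with Sry-beta on the same strand, and Sry-beta has none of its own either. A read placed there belongs to both genes. Sry-delta, another gene of the locus with bases of its own, had 74 to 644 counts in the embryo libraries. The sources used here do not give the annotation release behind the deposited counts, so whether shared exons gave the zeros was not tested, and the 0 of Sry-alpha is not read as absence of its RNA.

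Among the furrow genes bnk separated the lola-null controls from every other library. bnk had 0 and 0.22 CPM in lola-null mutants 1 and 2 (0 and 1 counts), against 7.81 and 55.1 CPM in lola-null controls 1 and 2 (43 and 484 counts). It had 0, 0.09 and 0.32 CPM in lola-F mutants 1 to 3, against 0, 0 and 0 CPM in the lola-F controls. Both lola-null controls were high and the other 8 embryo libraries lay at or near 0. Pooled over the libraries of a group, bnk was 386-fold lower in the lola-null mutants than in their controls (95% interval for counting error 69.05 to 15290). In a whole-embryo pool, fewer cells or embryos with an RNA and less of it in each cannot be told apart, for bnk and for every gene that follows.

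nullo, which stabilises the furrow, was high in a single library. It had 0 and 0.22 CPM in the lola-null mutants (0 and 1 counts), against 0.18 and 6.83 CPM in the lola-null controls (1 and 60 counts). lola-null control 1 lay within the range of the mutants, so the groups overlapped. nullo had 0, 0.09 and 0 CPM in lola-F mutants 1 to 3, against 0 CPM in each lola-F control.

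slam was the most abundant member and the only one with more than 3 counts in the lola-null mutants. It had 226 and 53.0 CPM in the lola-null mutants (1365 and 236 counts), against 135 and 356 CPM in their controls (744 and 3132 counts). The groups overlapped, since lola-null mutant 1 lay above lola-null control 1. The pooled level was 1.78-fold lower in the mutants (95% counting interval 1.67 to 1.88), a range for these reads and not for replicate pools. slam had 3.00, 3.23 and 12.3 CPM in lola-F mutants 1 to 3, against 2.98, 2.15 and 1.48 CPM in the lola-F controls. lola-F mutant 3 was the high one, with 227 of the 295 counts of its group.

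SNCF, a single-exon gene of 608 bases, was high in both lola-null controls and in lola-F mutant 3. It had 0 CPM in both lola-null mutants, against 5.81 and 22.2 CPM in their controls (32 and 195 counts), at least 55.5-fold lower with the mutants set at a floor of 3 counts over the group. In the lola-F set it had 0, 0 and 8.59 CPM in mutants 1 to 3, against 0 in each of the 3 controls. All 159 of its counts in the lola-F set came from mutant 3, which lay above lola-null control 1.

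halo had 0 CPM in both lola-null mutants, against 1.63 and 11.7 CPM in their controls (9 and 103 counts), at least 27.4-fold lower at the same kind of floor. In the lola-F set it had 0.19, 0.09 and 1.19 CPM in mutants 1 to 3 (2, 1 and 22 counts), against 0, 0 and 0.09 CPM in the controls. lola-F mutant 3 was again above the other 5 libraries of its set.

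zen had 0.50 and 0 CPM in the lola-null mutants (3 and 0 counts), against 2.00 and 6.83 CPM in their controls (11 and 60 counts). The pooled level was 17.4-fold lower in the mutants (95% counting interval 5.70 to 86.1). zen had 0, 0 and 0.86 CPM in lola-F mutants 1 to 3, against 0.30, 0.11 and 0 CPM in the controls. The 16 counts of lola-F mutant 3 stood against at most 1 count in any other lola-F library. zen is known for setting up the amnioserosa, the dorsal covering tissue, and 7 later markers of that tissue (Doc1, Doc2, Doc3, C15, tup, peb and zen2) were summed beside it. Their level was 60.5 to 77.5 CPM in the lola-null mutants, against 143 to 177 CPM in the lola-null controls. In the lola-F set it was 55.7 to 81.3 CPM in the mutants, lowest in mutant 3, against 81.8 to 157 CPM in the controls. The sums of lola-F mutants 1 and 2, 80.55 and 81.3 CPM, lay near those of controls 1 and 2, 81.8 and 83.75 CPM. The 157 CPM of control 3 held 106 CPM of peb, against 35.1 and 39.3 CPM in controls 1 and 2. peb stood at 35.0, 35.5 and 15.2 CPM in lola-F mutants 1 to 3. Most of the difference in the lola-null set lay in peb, at 16.1 and 11.5 CPM in the mutants, against 77.1 and 66.0 CPM in the controls, and in tup, at 8.62 and 9.44 CPM in the mutants, against 39.9 and 29.6 CPM in the controls. Both fell in the edgeR test (adjusted p = 5.23e-05 for peb and 0.00110 for tup), while Doc1, Doc2, Doc3 and C15 did not pass, with log2 fold changes of -0.79 to -0.16, and zen2 had at most 1 count in any embryo library.

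The ELBA subunits Elba1 and Elba3 were higher in both lola-null controls than in the other 8 embryo libraries. Elba1 had 0 CPM in both lola-null mutants, against 2.00 and 12.1 CPM in their controls (11 and 106 counts), at least 28.6-fold lower. It had 0 counts in all 6 lola-F libraries, mutant 3 included. Elba3 had 0 and 0.67 CPM in the lola-null mutants (0 and 3 counts), against 7.44 and 10.2 CPM in their controls (41 and 90 counts), a pooled level 32.02-fold lower (95% counting interval 10.7 to 157). In the lola-F set Elba3 stood at 0.10, 0.44 and 0.11 CPM in mutants 1 to 3, against 0.30, 0.45 and 0.18 CPM in the controls. Mutant 3 lay inside that range. Elba2 and insv (insensitive), which encode the other ELBA subunit and a related BEN domain protein that binds the same kind of DNA site, did not share this pattern. Elba2 had 257 and 172 CPM in the lola-null mutants, against 101.3 and 180 CPM in their controls, and insv 197 and 68.3 CPM in the mutants, against 101.5 and 108 CPM in the controls. Both genes overlapped between the lola-null groups. In the lola-F set Elba2 reached 6.538 CPM and insv 13.2 CPM in mutant 3, against at most 2.38 CPM of either gene in the other 5 libraries.

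**Figure D2:**
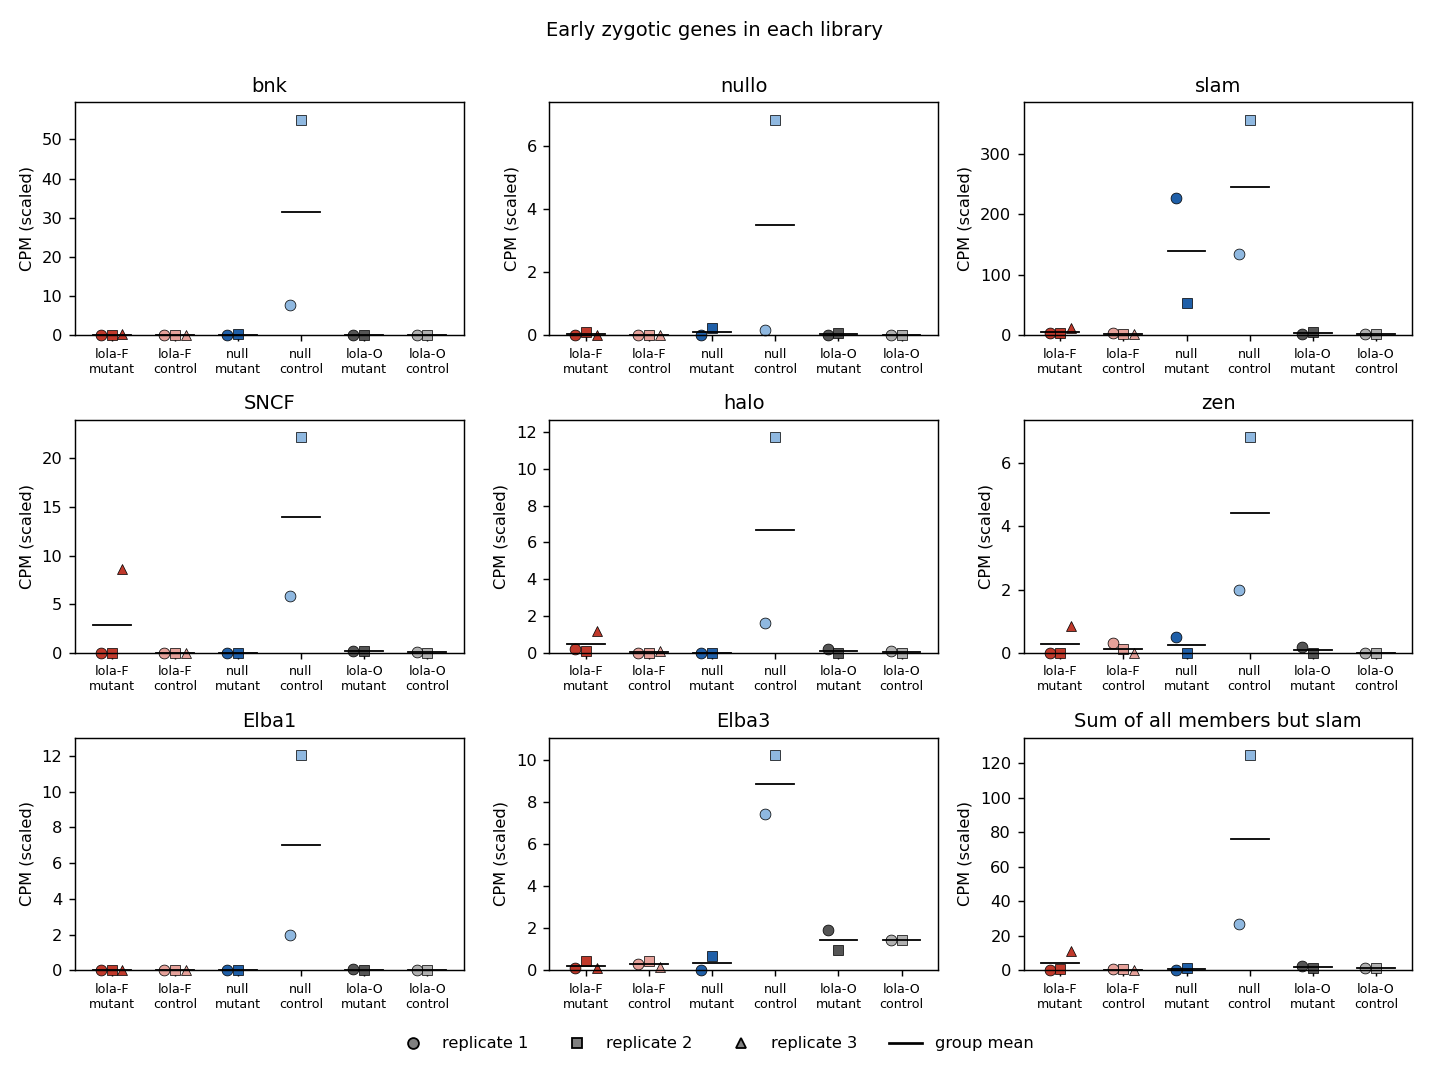
CPM (TMM-scaled, linear axes from 0) of each measured member, and of the sum of all members but slam, in each of the 14 libraries; each point is a library, marked by its replicate number, bars are group means, and mutants stand left of their controls. lola-null control 2 is the highest point in every panel, lola-null mutant 1 is high for slam at 226 CPM, and lola-F mutant 3 stands out for SNCF at 8.59 CPM.

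In all, 6 of the 9 members (bnk, SNCF, halo, Elba1, Elba3 and zen) lay higher in both lola-null controls than in both lola-null mutants, 2 overlapped (nullo and slam) and Sry-alpha was at 0. Over all 13752 genes with a count in these libraries, 19.4% lay higher in both controls than in both mutants. In the edgeR test, 9.49% of 9288 genes passed as lower in the mutants and 7.42% as higher. The members were chosen on these counts, so nothing is read from the 6 beside these shares. Only 7 members passed the filter on low counts (nullo and Sry-alpha did not), and they passed through the libraries where they are high. Their fitted log2 fold changes, mutants over controls, ran from -9.54 for SNCF to -1.05 for slam; for SNCF, halo and Elba1, with 0 counts in the mutants, the fitted value is no bound. In the lola-F comparison 1 member passed the filter, slam, with a log2 fold change of 1.65 ± 0.64 (SE), and 0.65 with mutant 3 left out. Over all 10191 genes tested there, 3.33% were higher and 3.73% lower in the mutants.

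The lola-null controls carried the same genotype label and the same age label as the lola-F controls. The members stood far apart between them: bnk was at least 283-fold, SNCF at least 122-fold, Elba1 at least 62.8-fold and nullo at least 32.7-fold higher in the lola-null controls, with the lola-F controls set at a floor of 3 counts over the group. halo, at 112 counts against 1, was 180-fold higher (95% counting interval 31.7 to 7183). slam was 139-fold (103 to 190), zen 57.1-fold (15.3 to 481) and Elba3 30.1-fold (14.2 to 76.4) higher. For 7 of the 9 members (SNCF and Sry-alpha apart) both lola-null controls lay above all 6 lola-F libraries. The same held for 28.0% of all 14937 genes with a count in these libraries. For nullo this order rests on 1 count in lola-null control 1 and 1 count in the deeper lola-F mutant 2. Of the 61 nullo counts of the lola-null controls, 60 came from control 2, so its fold is mostly that of 1 library. Over all 10501 genes tested between the control groups, 34.5% were higher and 35.8% lower in the lola-null controls, and the set, its read mapping and any difference in collection cannot be told apart.

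The lola-null controls also differed from each other. lola-null control 2 held 37.6-fold more nullo than control 1 (95% counting interval 6.50 to 1510), 7.06-fold more bnk (5.16 to 9.88), 7.17-fold more halo and 6.04-fold more Elba1. For SNCF the ratio was 3.82, for zen 3.42, for slam 2.64 (2.44 to 2.86), and for Elba3 1.38 (0.941 to 2.04), whose interval includes no difference. By these ratios nullo, bnk and halo lay at one end and slam and Elba3 at the other. The ratio of nullo rests on 60 counts against 1, and its interval includes the ratios of bnk and halo. Each ratio sets 1 library against 1 other for members chosen on these counts, so a difference between members was not tested.

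lola-F mutant 3 had a different mix of members from the lola-null controls. Its summed level without slam was 11.1 CPM, against 0.29 and 0.70 CPM in lola-F mutants 1 and 2 and 0.28 to 0.60 CPM in the lola-F controls. The same sum was 0.50 and 1.12 CPM in the lola-null mutants, against 26.9 and 125 CPM in the lola-null controls. Per count of bnk, lola-F mutant 3 held 26.5 counts of SNCF (95% counting interval 11.9 to 73.3), against 0.744 (0.456 to 1.204) in lola-null control 1 and 0.403 (0.339 to 0.477) in lola-null control 2. Per count of SNCF it held 1.43 counts of slam (1.16 to 1.76), against 23.3 and 16.1 in those controls. Scaled also by length, SNCF led in lola-F mutant 3 at 14.1 CPM per kilobase with slam next at 2.98, while slam led in both lola-null controls at 32.8 and 86.5 CPM per kilobase. There the next member was SNCF in control 1 (9.55 CPM per kilobase) and bnk in control 2 (53.6 CPM per kilobase).

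**Figure D3:**
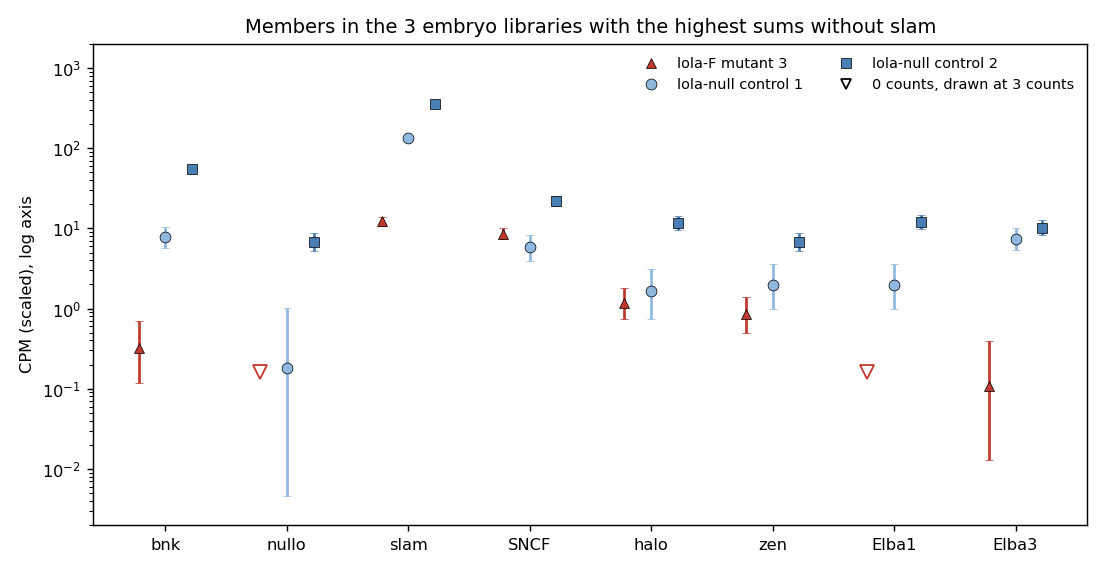
CPM (TMM-scaled, log axis) of the 8 members other than Sry-alpha in lola-F mutant 3 and in the lola-null controls, with bars for the 95% counting interval of each count; open marks at the floor of 3 counts stand for 0 counts. In lola-F mutant 3 SNCF, at 8.59 CPM, lies between the controls, and Elba1 and nullo had 0 counts.

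The adults gave the level outside embryos. The sum of the members without slam was 1.29 to 2.71 CPM in the lola-O mutants, against 1.52 to 1.66 CPM in the lola-O controls, and Elba3 made up most of it in all 4 libraries. Elba3 stood at 1.91 and 0.96 CPM in the lola-O mutants, against 1.42 and 1.44 CPM in their controls, above its level in the 6 lola-F libraries. slam had 2.46 and 5.06 CPM in the lola-O mutants, against 2.26 and 1.95 CPM in the controls.

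RNA that the mother places in the egg was followed through 15 markers of egg and germline (bcd, osk, nanos, pgc, exu, swa, png, plu, gnu, bru1, CycB3, orb, aub, piwi and BicC), of which BicC was at 0 in every embryo library. Their summed level was 2085 and 1048 CPM in the lola-null mutants, against 1286 and 1924 CPM in their controls. It was 67.7, 73.9 and 309 CPM in lola-F mutants 1 to 3, against 133, 99.95 and 86.5 CPM in the lola-F controls. The lola-null groups overlapped in this sum. They did not overlap in the sum of the members without slam, at 0.50 and 1.12 CPM in the mutants, against 26.9 and 125 CPM in their controls. The adults held 1180 to 1446 CPM, led by exu, bru1 and orb, so these 3 genes do not mark eggs alone.

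bcd (bicoid), the RNA that the mother lays down at the anterior pole, stood at 377 and 160 CPM in the lola-null mutants, against 129 and 181 CPM in their controls. In the lola-F set it was at 0.77, 0.44 and 31.7 CPM in mutants 1 to 3, against 0.60, 0.68 and 0 CPM in the controls. lola-F mutant 3 was the high library, as for SNCF. CycB3, a cyclin that is abundant in eggs, had 122 CPM there, against 8.42 and 6.64 CPM in lola-F mutants 1 and 2 and 2.68 to 10.1 CPM in the lola-F controls. Of the 15 egg markers 10 were higher in lola-F mutant 3 than in each of the other 5 lola-F libraries, and of the 9 members 5 were (bnk, SNCF, halo, slam and zen). Of all 14530 genes with a count in the lola-F set 23.8% met the same criterion. The part of the egg markers in the members' levels was not tested.

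**Figure D4:**
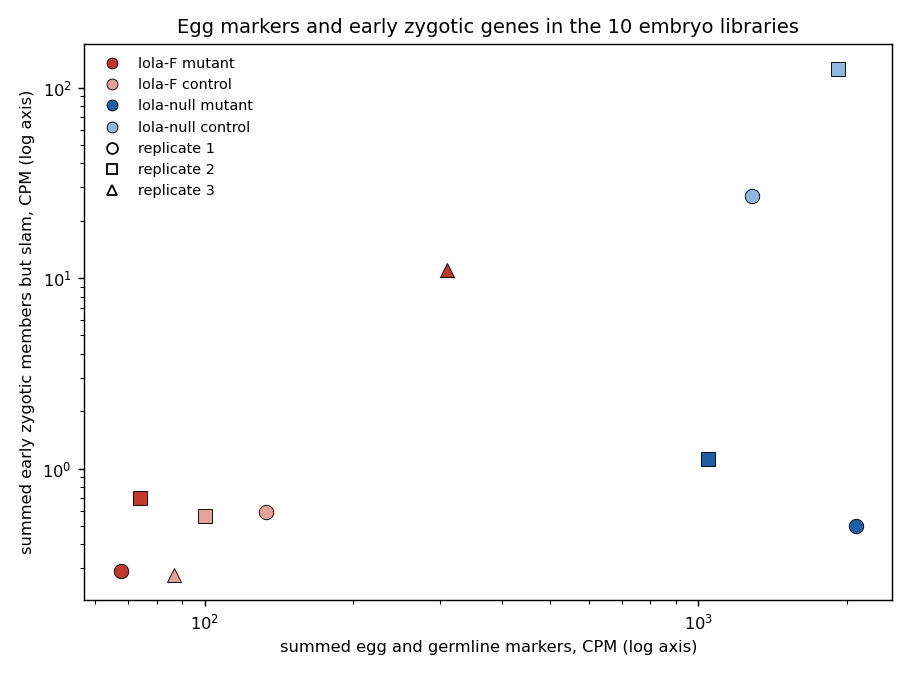
Summed level of the 15 egg and germline markers (x axis) against the summed level of the members without slam (y axis), both in CPM on log axes, for the 10 embryo libraries; each point is a library and colours give the groups. The lola-null mutants lie at 1048 and 2085 CPM of egg markers with 1.12 and 0.50 CPM of members, the lola-null controls have 26.9 and 125 CPM of members, and lola-F mutant 3 lies apart from the other lola-F libraries on both axes.

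Within the egg markers the lola-null groups split by gene. In edgeR's quasi-likelihood test with Benjamini-Hochberg adjustment 6 of the 14 tested markers fell in the mutants and 0 rose (1 at an unadjusted p under 0.05, 0 in DESeq2), against 9.49% lower and 7.42% higher over all genes tested. The 6 were nanos, gnu, bru1, pgc, orb and osk, with log2 fold changes from -3.58 for nanos (adjusted p = 1.40e-05) to -1.72 for osk (adjusted p = 0.00501). nanos, osk and pgc act in the germ plasm at the posterior pole, where the germ cells form. The log2 fold changes of bcd (0.58), swa (0.91), plu (1.07), CycB3 (-0.26), exu (-1.17) and png (-1.02) did not pass. Those of aub (0.201) and piwi (-0.503), also on this list of egg and germline markers, did not pass either. The lola-null groups overlapped in both aub and piwi. Both lola-null control libraries exceeded both mutants in 8 of the 15 markers, and the reverse held for 2. Over all 13752 genes with a count in these libraries the shares were 19.4% and 31.6%.

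The genes that open the zygotic genome were tested as a list of 15 regulators and early targets. In the lola-null comparison 4 of 14 tested fell in the mutants and 0 rose (1 at an unadjusted p under 0.05, 0 in DESeq2), against 9.49% lower and 7.42% higher over all genes tested. sisA, an early zygotic counter of X chromosomes that is brief like the members, had 0.33 and 0.22 CPM in the lola-null mutants, against 16.7 and 7.39 CPM in their controls (2 and 1 counts, against 92 and 65). It is among the 4, but with the mutants under the floor of 3 counts it entered the test through the controls alone, so no fold is given. It stood at 0.19, 0 and 3.94 CPM in lola-F mutants 1 to 3, against 0.89, 1.47 and 0 CPM in the lola-F controls. sisA was thus highest in the same 3 embryo libraries as SNCF. In the adults sisA had 4.56 and 2.17 CPM in the lola-O mutants, against 0.59 and 2.45 CPM in their controls. SNCF had at most 0.18 CPM there, so sisA did not share its low level in adults. The other 3 were grh, stg and Trl. zld (Zelda), the pioneer factor that opens early genes, had 288 and 62.5 CPM in the lola-null mutants, against 391.7 and 437.7 CPM in their controls, and its log2 fold change of -1.48 ± 0.53 did not pass. smg (smaug), which drives the decay of maternal RNA, had 2069 and 433 CPM in the mutants, against 1046 and 1581 CPM in the controls, an overlap. smg reached 122 CPM in lola-F mutant 3, against 38.6 and 39.8 CPM in mutants 1 and 2 and 43.4 to 60.4 CPM in the lola-F controls. twe (twine), the phosphatase of the egg's divisions, reached 28.3 CPM there, against at most 1.79 CPM in the other 5 lola-F libraries. The adults held 21.8 to 28.6 CPM of twe, so it does not mark eggs alone.

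Between the control groups 11 of 13 tested regulators rose in the lola-null controls and trbl fell, and all 14 tested egg markers rose, with 0 lower (0 at an unadjusted p under 0.05; DESeq2 called 13 higher and 0 lower). Over all genes tested there 34.5% were higher and 35.8% lower. For bcd the lola-F controls held 2, 6 and 0 counts, near the floor, so no fold is given. CycB3 rose by 7.17 ± 0.50 on the log2 scale (edgeR adjusted p = 1.79e-05) and aub by 3.25 ± 0.24 (adjusted p = 2.17e-05). In the lola-F comparison 0 of 12 tested egg markers passed in either direction in edgeR (3 at an unadjusted p under 0.05, and 1 lower in DESeq2). Of 13 tested regulators there brat alone fell, with a log2 fold change of -0.76 (adjusted p = 0.0416 in edgeR). None rose (2 at an unadjusted p under 0.05, 0 in DESeq2), against 3.73% lower and 3.33% higher over all genes tested. The call of brat was lost without lola-F mutant 1, mutant 2, control 1 or control 2, where edgeR called 0 genes.

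Genes of the steps that go with or follow the members were described by 3 lists, of which 26 segmentation genes, 29 dorsoventral and gastrulation genes and 30 genes of the cellularization machinery matched the files. In the lola-null comparison 5 of 25 tested segmentation genes fell in the mutants and 0 rose. The median log2 fold change of the list was -0.85, against 0.09 over all genes tested, and 0 of the 25 had a positive value. Of 24 tested dorsoventral and gastrulation genes 10 fell and 0 rose, with a median of -0.88. In the cellularization machinery 4 of 30 fell and 0 rose, with a median of -0.36. In each of these lists 0 genes were higher at an unadjusted p under 0.05, and 0 in DESeq2, which called 5, 10 and 5 lower. These counts stand against 9.49% lower and 7.42% higher over all genes tested.

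oc (ocelliless), a head gap gene, averaged 2.47 ± 0.22 CPM in the lola-null mutants and 20.2 ± 3.1 CPM in their controls (SD, n = 2 each, on the scale of that comparison), a log2 fold change of -3.01 ± 0.54 (edgeR adjusted p = 0.000121). drm, cnc and knrl also fell, 5.34-fold, 4.94-fold and 7.31-fold. Among the dorsoventral genes pyr, an FGF of the early mesoderm, fell 10.3-fold, rho (rhomboid), which activates EGF signals, 9.85-fold, sog, the BMP antagonist of the ventral side, 6.66-fold and peb, a marker also of the amnioserosa, 5.89-fold. In the machinery Moe (Moesin), which ties actin to the membrane, fell 6.58-fold (adjusted p = 6.51e-05), sstn 3.03-fold, shg (E-cadherin) 2.74-fold and Rho1, the GTPase of furrow constriction, 2.68-fold. Many of these genes are used again in later organs, so a fall in them does not date an embryo. The count of the machinery varied with the libraries left out: 16 fell without mutant 1, 5 fell and 2 rose without mutant 2, and 1 fell without control 1 and without control 2. Each of these fits leaves 1 library in a group, which is assumed to vary like the other group.

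In the lola-F comparison these lists moved little: 1 of 23 segmentation genes fell (drm), 2 of 24 dorsoventral genes (sog and mthl1) and 2 of 30 machinery genes (shg and baz). In each list 0 rose. Over all genes tested 3.73% were lower and 3.33% higher, so these counts lie near those shares. At an unadjusted p under 0.05 the lists held 0, 2 and 0 higher genes, and DESeq2 called 0 higher in each. sog had the largest fall, 2.33-fold (edgeR adjusted p = 0.0316), at 15.3 ± 3.7 CPM in the mutants and 35.4 ± 5.7 CPM in the controls (SD, n = 3 each). drm, sog and shg thus fell in both mutant comparisons. None of these 5 calls held without lola-F mutant 1, mutant 2, control 1 or control 2, where edgeR called 0 genes of any kind (2277 to 2874 at an unadjusted p under 0.05).

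Between the control groups, which share genotype and age labels, the same lists moved both ways. In the lola-null controls 16 of 25 segmentation genes rose and 3 fell, with a median log2 fold change of 1.02, against -0.02 over all genes tested. Of 25 dorsoventral genes 13 rose and 3 fell (median 0.84), and of 30 machinery genes 18 rose and 6 fell (median 0.72). These counts stand against 34.5% higher and 35.8% lower over all genes tested. In the machinery scra (anillin), which scaffolds the furrow, rose 34.0-fold, to 282 ± 71 CPM in the lola-null controls, against 8.51 ± 1.85 CPM in the lola-F controls (SD, n = 2 and 3; adjusted p = 6.86e-06). kuk, which lengthens the nuclei during cellularization, rose 24.0-fold, Septin1 12.4-fold and arm (beta-catenin) 5.08-fold, while Amph, Moe, Rho1 and step fell between 1.76-fold and 3.99-fold. hb (hunchback), whose RNA is both maternal and zygotic, rose 14.8-fold, kni 4.42-fold and slp1 4.12-fold (gsb also passed, with the lola-F controls near the floor), while hry, cnc and Kr fell 10.3-fold, 4.54-fold and 2.15-fold. sna (snail), the mesoderm repressor of gastrulation, rose 4.72-fold, and C15, pnr and T48 rose 2.83-fold to 3.97-fold, while pyr, vnd and sog fell.

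**Figure D5:**
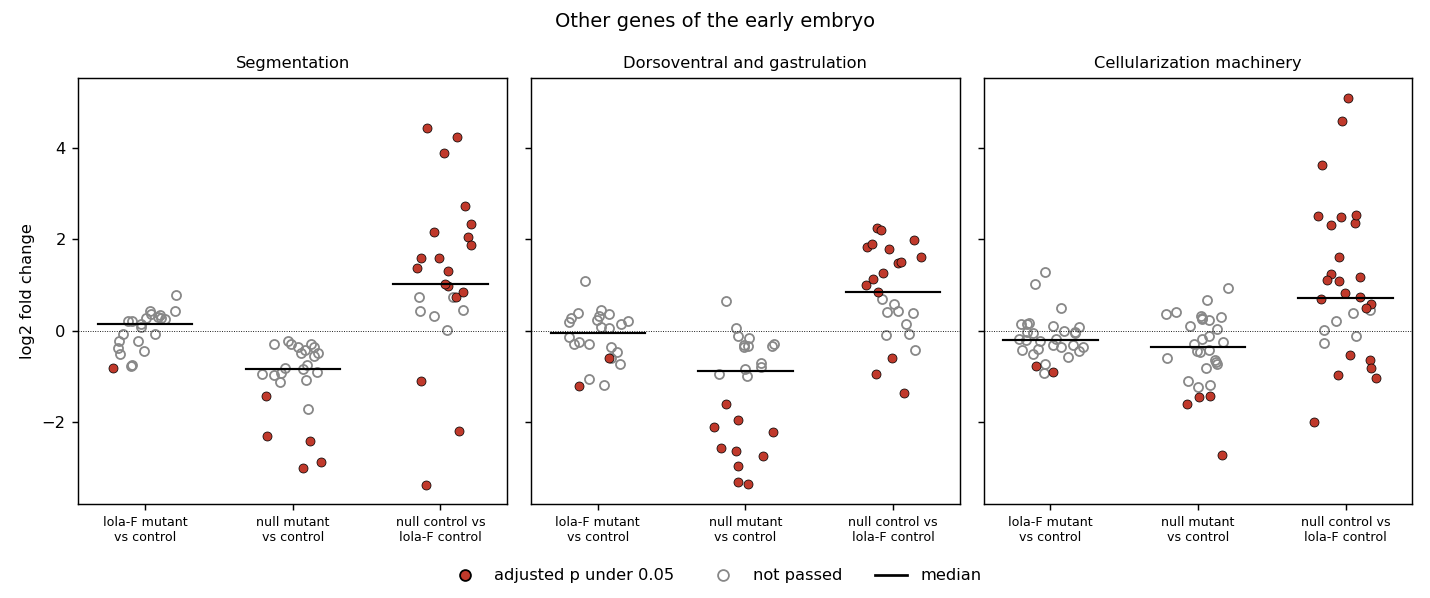
Log2 fold change (y axis) of every tested gene of the segmentation, dorsoventral and gastrulation, and cellularization machinery lists in the 3 embryo comparisons (x axis), with the first-named group over the second; filled red points passed the edgeR test at an adjusted p under 0.05, open ones did not, and bars are list medians. The medians lie below 0 in the lola-null comparison (-0.85, -0.88 and -0.36) and above 0 between the control groups (1.02, 0.84 and 0.72).

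The genes whose levels ran most like the summed members over the 10 embryo libraries, among 6127 named genes, were tef, Klp61F, Panx, dup, mars, Brd7-9, Atxn7 and BEAF-32, with Pearson's r of 0.9850 to 0.993 on log2(CPM + 0.5). The 10 libraries share their sets and depth, so r is given as a measure of likeness only. slam made up 52.6% to 99.8% of the sum in each of these libraries, so this likeness is mostly to slam. dup, which licenses DNA replication, had 438 and 155 CPM in the lola-null mutants and 80.0 CPM in lola-F mutant 3, against 8.31 to 16.1 CPM in the other lola-F libraries. With slam left out of the sum, an alternative chosen after seeing the data, the 8 were Mps1, Rrp1, Nup58, bard, SkpC, okr, pbl and gnu (r of 0.8996 to 0.967), with 0 shared between the sets of 8. Of these 8, bard had 11.8 CPM in lola-F mutant 3 and 14.7 and 12.4 CPM in the lola-null controls, against at most 0.225 CPM in each of the other 7 embryo libraries.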

How the data were processed

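RNA of whole embryos and adults was made into directional libraries from 1 µg of total RNA, per the labels' protocols. Per the submitters' processing notes, the tools were STAR 2.5.0c and HTSeq 0.6.1p1 and the build BDGP6. The sources used here do not give the annotation release or the strand setting. The deposited files hold whole-number counts of 1 library each, without normalization, plus 5 summary rows that were left out of library sizes and tests (6.32% to 66.7% of reads). Files of the lola-F and lola-O sets hold 17558 gene identifiers, those of the lola-null set 17387; 17252 matched the BDGP6.54 annotation, as did all 9 members and 115 of 118 other list genes. FBgn0005630 was read as lola from general knowledge. No sequences are printed.

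Counts were tested in R 4.3.3 with edgeR 4.0.16: filterByExpr, TMM, quasi-likelihood F test and Benjamini-Hochberg adjustment over all genes tested at 0.05. A standard error is the log2 fold change over the root of the F statistic. Each comparison was fitted on its own libraries: mutants against the controls of their set, and lola-null against lola-F controls. Alternatives were DESeq2 1.42.0, size factors by relative log expression, no filter, a block on replicate number, removal of the length trend of each library, plain library totals, and each library left out. Ratios of pooled counts carry exact 95% intervals for counting error only; reads without molecular identifiers are not independent molecules.

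The members and gene lists were chosen with earlier results of these data known. Named list genes were up to 4 in each direction with the smallest p per list and embryo comparison, at 5 CPM or more in a group; any egg marker or regulator could be named. Within groups every pair of libraries differed beyond sampling noise (chi-square over degrees of freedom, 3.08 to 85.4), and each was kept as a library of its own. The 3.08 was that of lola-F mutants 1 and 2, while every other pair had 15.1 or more. Such a difference does not show that the libraries came from separate pools. The labels name no separate crosses behind the replicates, and p-values measure the spread between these libraries, which may be technical. Tested on simulated data with 100 genes at each fold, the fit found 38 genes at 2-fold and 97 at 4-fold in lola-F (10095 genes). It found 8 and 65 in lola-null (9127), 32 and 92 in lola-O (12812), and 19 and 75 between controls (10345). It called 9, 0, 6 and 24 unchanged genes. Between the real control groups 7381 of 10501 genes were called, far more than the simulation changed. The adjusted threshold depends on that share, so these counts do not give the power of each real comparison.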

Additional observations from a re-analysis of the deposited data

How the results depend on the processing

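Among the members' fitted log2 fold changes, that of Elba3 in the lola-O comparison, 0.03 over all libraries, turned to -0.585 without lola-O mutant 1 and was 0.411 without lola-O mutant 2. In the lola-null comparison the fitted value of bnk ranged from -10.83 to -6.20 and that of SNCF from -10.28 to -8.09. SNCF had 0 counts in both lola-null mutants, and bnk had 0 and 1. Both passed the filter through the controls, so these ranges neither bound a fold nor measure its stability. The fitted value of slam ranged from -2.38 to -0.19, lowest without lola-null mutant 1 and highest without lola-null control 2. The summed level of the 9 members on plain library totals was 19.1 CPM in lola-F mutant 3, 213 CPM in lola-null mutant 1, and 211 and 596 CPM in the lola-null controls, against 23.3, 227, 162 and 481 CPM on TMM-scaled totals. The 8 genes most like the members shared 0 with the 8 by Spearman's rho and 0 with those for the sum without slam.

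The lola-F comparison called 719 genes in edgeR, 1877 in DESeq2, 427 without the low-count filter and 273 with the length trend removed. With the replicate block it called 0 (2494 at an unadjusted p under 0.05). Leaving out a library gave 0 to 1150, the 1150 without control 3 and the 0 without mutant 1, mutant 2, control 1 or control 2. Its segmentation list had 1 call, 2 in DESeq2 and 0 with the replicate block (1 at an unadjusted p under 0.05), and 0 to 1 with a library left out. Its dorsoventral list had 2 calls, 1 without the filter or the length trend, 0 with the block (7 at an unadjusted p under 0.05) and 0 to 2 with a library left out. Its machinery list had 2 calls, 7 in DESeq2, 1 without the filter or the length trend, 0 with the block (7 at an unadjusted p under 0.05) and 0 to 2 with a library left out. The share of calls that were higher was 47.1%, and 61.9% with the length trend removed.

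The lola-null comparison called 1570 genes, and 546 to 3112 with a library left out, the most without mutant 1, then 2799 without mutant 2, and 677 and 546 without control 1 or control 2; each such fit leaves 1 library in a group, assumed to vary like the other group. Its share of higher calls was 43.9%, and 54.3% with the length trend removed. Its segmentation list ranged from 4 to 8, its dorsoventral list from 7 to 13, and its machinery list from 1 to 16, with 2 under the block. Between the control groups 7381 genes were called and 6177 to 7509 with a library left out; size factors by relative log expression moved the all-gene median there from -0.02 to -0.12 (log2). The lola-O comparison called 72 genes, 326 in DESeq2, 415 without the filter, 669 with the replicate block and 5 to 227 with a library left out, the 5 without lola-O control 1 and the 227 without either mutant; its share of higher calls was 59.7%, and 48.8% in DESeq2 and 40.5% with the block. The cause of these differences was not tested. Whether replicate numbers mark pairs was not settled. Same-numbered libraries of a set correlated at -0.263 to 0.0957 in their deviations from the group means, and at -0.168 to -0.031 in the lola-F set. In the lola-null and lola-O sets, with 2 libraries per group, the deviations of a group mirror each other. There the correlation can neither show nor exclude pairing.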
